A study of Mus musculus with 9 samples.

Results

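The fast fibre contractile genes described here are 10 genes of the fast-twitch muscle programme, named by symbol: the myosin heavy chains Myh1, Myh2 and Myh4, the regulatory light chain Mylpf, the troponin subunits Tnnt3, Tnni2 and Tnnc2, the Z-disc protein Actn3, the calcium pump Atp2a1 and the calcium buffer Pvalb. They are 10 of the 9697 genes tested, and the platform annotation gives them 15 of the 45101 probe sets on the array, a probe set being a group of short probes that reads 1 transcript near its 3′ end. All 10 genes passed the filter on dim values, with 14 of their 15 probe sets. The samples are quadriceps femoris, a thigh muscle, from 9 female C57Bl/6 HT transgenic mice with 1 array each. Doxycycline in these mice holds off an MHC class I transgene, and its withdrawal induces it. In the late group (n = 3) withdrawal came at 35 days of age and the muscle was taken at 50 days. In the early group (n = 3) withdrawal came at 21 days and the muscle was taken at 35 days. The control group (n = 3) had the drug throughout, and its muscle was taken at 35 days. The protocol describes the controls as littermates with 1 transgene, whereas the strain label is the same in all 3 groups, and the promoter that drives the transgene is not given in the sources used here. Late mice were therefore older than both other groups, and age and induction cannot be told apart in their comparisons. Drug exposure, and genotype if the protocol holds, also differed between induced and control mice.

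A fast muscle fibre shortens quickly because its myosin motors split ATP fast and because calcium is released and cleared fast. Myosin heavy chains form the thick filament: Myh4 encodes the 2B type, Myh1 the 2X type and Myh2 the 2A type, in falling order of shortening speed, and Mylpf binds their necks. On the thin filament Tnnc2 senses calcium, Tnni2 holds the filament off and Tnnt3 anchors both to tropomyosin. Actn3 crosslinks actin at the Z-disc, Atp2a1 pumps calcium back into the sarcoplasmic reticulum, and Pvalb binds free calcium in the cytosol. A slow fibre uses related genes for most of these tasks, such as Myh7, Tnnc1 and Atp2a2.

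The 3 myosin heavy chain genes among the members are of particular interest because Myh2 varied more between animals than Myh1 and Myh4 did. They lie in 1 cluster on mouse chromosome 11, and the 250 bases before each start site are shown so that the 3 can be compared. The sequences are from RefSeq on build GRCm38.p6, plus strand: Myh2 at chr11:67170777-67171026, Myh1 at chr11:67199852-67200101 and Myh4 at chr11:67237562-67237811. Capitals mark every match, on either strand, to CANNTG (the E-box bound by myogenic regulators), TATAAA (the TATA box), CATTCC (the core of the M-CAT element) or the MEF2 motif.
Myh2: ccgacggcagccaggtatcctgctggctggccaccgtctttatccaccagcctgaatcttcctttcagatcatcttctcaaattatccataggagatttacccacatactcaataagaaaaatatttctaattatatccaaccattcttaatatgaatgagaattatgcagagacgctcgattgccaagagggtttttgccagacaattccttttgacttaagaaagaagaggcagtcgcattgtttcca
Myh1: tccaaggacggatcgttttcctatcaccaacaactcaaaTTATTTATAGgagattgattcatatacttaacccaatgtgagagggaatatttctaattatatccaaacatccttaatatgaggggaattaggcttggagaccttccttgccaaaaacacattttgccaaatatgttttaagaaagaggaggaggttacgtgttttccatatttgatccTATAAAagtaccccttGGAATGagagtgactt
Myh4: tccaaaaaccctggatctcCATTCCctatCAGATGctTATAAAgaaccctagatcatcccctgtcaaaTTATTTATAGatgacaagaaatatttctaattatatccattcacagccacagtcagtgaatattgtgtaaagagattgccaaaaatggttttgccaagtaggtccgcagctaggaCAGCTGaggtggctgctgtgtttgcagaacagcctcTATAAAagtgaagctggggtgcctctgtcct

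Myh1 and Myh4 each held a TATAAA close to the start, beginning 32 and 31 bases before it, and 1 match to the MEF2 motif, inside which a further TATAAA match lay on the other strand. Myh4 also held 2 CANNTG matches, beginning 221 and 67 bases before the start. The Myh2 window held none of the 4 motifs, which says only that these letters are not in this window. In a global alignment Myh1 and Myh2 shared 123 of 250 bases (49.2%), Myh1 and Myh4 144 (57.6%) and Myh2 and Myh4 139 (55.6%). Over all members, 7 of 10 genes matched a promoter entry, with 8 windows in all, and none was matched for Tnnt3, Tnni2 and Actn3. Of the windows 5 held CANNTG, 2 TATAAA, 2 CATTCC and 3 the MEF2 motif, while 66.2%, 12.4%, 12.6% and 1.69% of all 32851 windows of the same length did, in that order.

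Values throughout are the authors' log2 expression values, and a difference of 1 is a doubling. The label check held on every array: H2-K1, a class I gene, stood at 14.20, 13.11 and 14.31 in late mice and 14.67, 14.64 and 14.69 in early mice, against 10.88, 10.47 and 10.21 in controls. The samples read as skeletal muscle, since all 7 skeletal myofibre markers passed the filter. Their summed log2 level was 101.9 to 102.8 in late, 101.1 to 101.7 in early and 102.1 to 102.6 in control mice. These markers cannot tell quadriceps from another skeletal muscle. No T cell marker of the 4 annotated lay above a log2 value of 5 on any array. The summed level of the 6 macrophage markers was 46.3 to 48.2 in late, 44.4 to 53.3 in early and 45.6 to 48.2 in control mice. Over the 5 tested, early replicates 1 and 2 stood apart at 50.96 and 49.22, with early replicate 3 at 41.81, against 42.63 to 45.49 in late and 43.01 to 45.57 in control mice. Cd68, a macrophage lysosomal protein, was 12.06, 11.17 and 6.23 in early mice, against 7.90, 6.74 and 7.15 in controls. Cd163 was 8.27, 7.89 and 7.95 in early mice, against 8.33, 8.11 and 8.25 in controls. Csf1r in early replicate 2, at 10.44, lay within the controls' 10.19 to 10.57. In early replicates 1 and 2 Adgre1 and Lyz2 lay above every control, as did Csf1r in replicate 1. The 3 annotated adipocyte markers summed to 27.4 to 30.5, 26.7 to 28.0 and 29.0 to 32.7 in late, early and control mice. The 5 fibroblast markers summed to 61.1 to 63.7 in late, 63.5 to 65.7 in early and 64.2 to 65.7 in control mice, and the 2 Schwann cell markers annotated to 21.7 to 22.8, 20.6 to 21.2 and 22.2 to 23.0. The 2 annotated erythroid markers summed to 7.12 to 9.30, 6.89 to 7.67 and 8.02 to 8.76 in late, early and control mice. By summed level early mice thus lay below controls for the skeletal myofibre, adipocyte, Schwann cell and erythroid markers, and late mice for the fibroblast markers. The myofibre markers did not move alike in early mice against controls. Tcap differed by -0.78 and Des by 0.44, and 2 of the 7 differences were positive. The fibroblast markers did not move alike in late mice against controls. Col1a1, Col3a1 and Lum differed by -0.85, -0.74 and -0.56, and Pdgfra and Dcn by 0.04 and 0.05. The part of all these cell type markers, macrophage ones included, in the results below was not tested. In bulk muscle, fewer fibres of a type and less RNA per fibre cannot be told apart.

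Myh2 had the widest spread of the 10 genes, 2.01 between its lowest and highest array on the log2 scale, against 0.21 to 0.64 for the other 9. Its level was 15.04, 15.21 and 14.62 in late mice, 14.76, 14.50 and 13.20 in early mice and 14.11, 14.16 and 14.57 in control mice. Every late array lay above every control array, the nearest pair being 14.62 and 14.57, whereas the early arrays spanned the controls and replicate 3 was the lowest of all 9. Group means were 14.96 ± 0.30, 14.15 ± 0.83 and 14.28 ± 0.25 for late, early and control mice (SD, n = 3 each). Late mice differed from controls by 0.68 ± 0.37 (SE; 1.60-fold; 95% interval -0.17 to 1.53), which did not pass in limma's moderated test (adjusted p = 0.384). Early mice differed from controls by -0.12 ± 0.37 (interval -0.97 to 0.72, limma adjusted p = 0.88). Late differed from early mice by 0.80 ± 0.37 (interval -0.05 to 1.65, limma adjusted p = 0.164). Early replicate 3 decided the sign of the early difference: without it early mice lay 0.35 above controls (limma adjusted p = 0.317), and the late minus early difference was 0.33. Only 1 probe set reads Myh2, so its pattern has no second reading on the array.

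Myh4 encodes the motor of the fastest fibres. It stood at 15.88, 15.79 and 15.76 in late mice, 15.43, 15.61 and 15.76 in early mice and 15.80, 15.68 and 15.72 in controls. The 3 groups overlapped, with early replicates 1 and 2 lowest. Late mice differed from controls by 0.08 ± 0.13 and early mice by -0.13 ± 0.13, and late differed from early mice by 0.21 ± 0.13 (limma adjusted p = 0.805, 0.603 and 0.284).

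Myh1, the 2X motor, lay between 14.91 and 15.20 on all arrays. It was 15.03, 15.12 and 15.17 in late mice, 15.14, 15.18 and 14.91 in early mice and 15.03, 15.11 and 15.20 in controls, so that the groups covered nearly the same range. Its differences were -0.01 ± 0.13 in late and -0.04 ± 0.13 in early mice against controls. Mylpf, the light chain that sits on these motors, had the narrowest range, 15.45 to 15.66. Its highest value was in control replicate 1, and late and early mice differed from controls by -0.06 ± 0.12 and -0.08 ± 0.12.

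**Figure D1:**
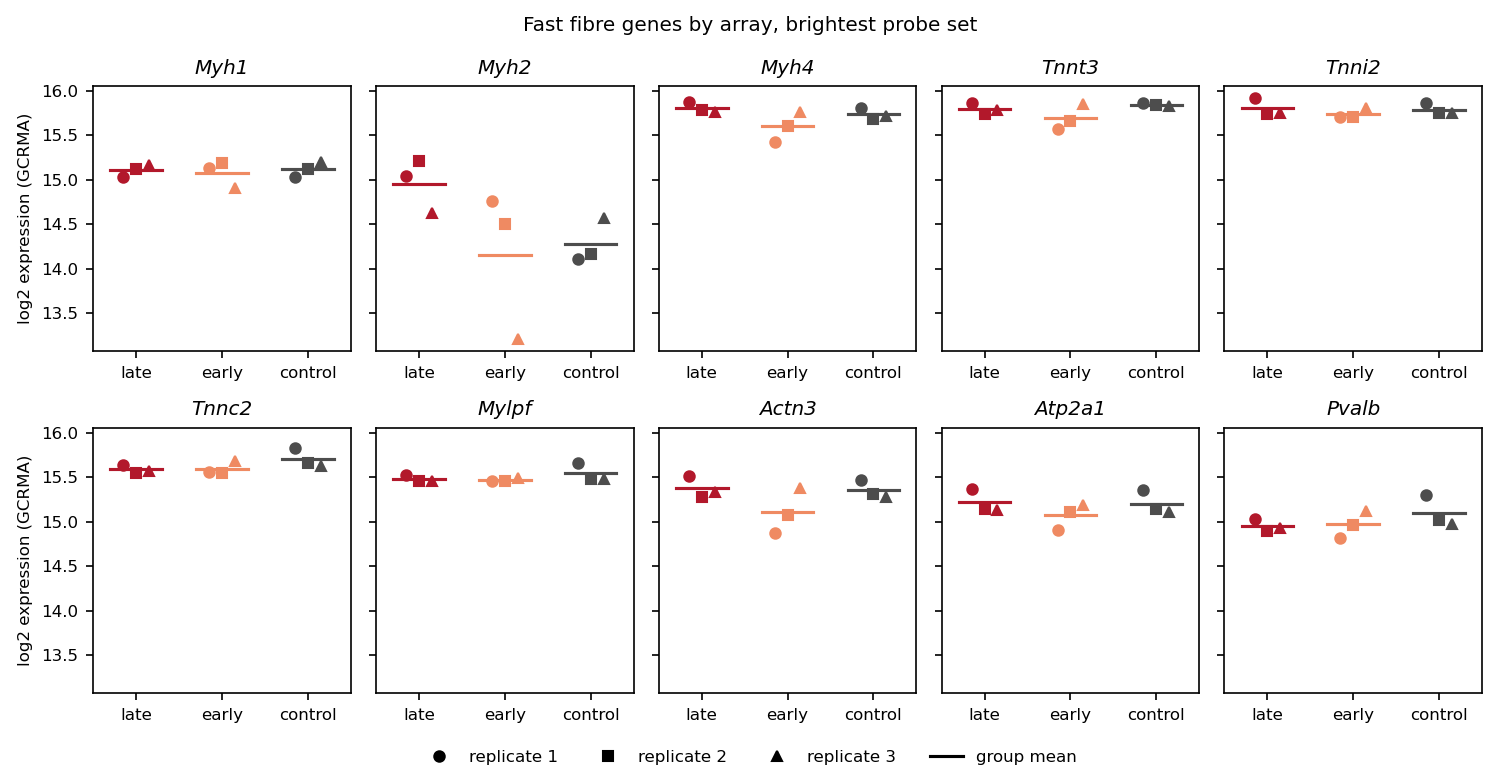
Log2 expression (vertical axis) of each of the 10 fast fibre genes on its brightest probe set, for late, early and control mice; points are single arrays, shaped by replicate, and lines are group means (n = 3). Myh2 spreads from 13.20 to 15.21, while the other genes stay within 0.64 and early replicate 1 is often lowest.

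The troponin genes of the thin filament were nearly level across groups. Tnnt3 was 15.86, 15.73 and 15.78 in late, 15.56, 15.66 and 15.85 in early and 15.86, 15.84 and 15.82 in control mice. Early replicates 1 and 2 were the lowest arrays, and early differed from control mice by -0.15 ± 0.13 (limma adjusted p = 0.537). Tnni2 was 15.92, 15.73 and 15.75 in late, 15.71, 15.70 and 15.80 in early and 15.86, 15.75 and 15.75 in control mice, with overlap between all groups. Tnnc2, the calcium sensor, differed from controls by -0.12 ± 0.12 in late and -0.11 ± 0.12 in early mice. Control replicate 1, at 15.83, was its highest array.

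Actn3, the fast-fibre crosslinker of the Z-disc, had the second widest range, 14.87 to 15.52. It stood at 15.52, 15.28 and 15.34 in late mice, 14.87, 15.08 and 15.37 in early mice and 15.47, 15.31 and 15.28 in controls. Early replicates 1 and 2 lay below every other array, while early replicate 3 lay among the controls. Early mice differed from controls by -0.25 ± 0.16 (0.84-fold; 95% interval -0.61 to 0.11; limma adjusted p = 0.418), and late from early mice by 0.27 ± 0.16 (interval -0.09 to 0.63; limma adjusted p = 0.255).

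The calcium handling genes moved little. Atp2a1, the pump that ends a fast twitch, was 15.37, 15.15 and 15.14 in late, 14.91, 15.11 and 15.19 in early and 15.35, 15.14 and 15.11 in control mice. Pvalb was 15.03, 14.90 and 14.93 in late, 14.82, 14.97 and 15.12 in early and 15.30, 15.02 and 14.97 in control mice. For both genes early replicate 1 was the lowest of 9 arrays and the groups overlapped. Early differed from control mice by -0.13 ± 0.14 for each gene, and late from control mice by 0.01 ± 0.14 for Atp2a1 and -0.14 ± 0.14 for Pvalb.

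In each of the 3 comparisons 0 of the 10 genes passed at a limma adjusted p under 0.05, and 0 had an unadjusted p under 0.05. Over all 9697 genes, 0.206% were called in late against control mice (0.0928% higher, 0.113% lower), 1.19% in early against control mice (0.928% higher, 0.258% lower) and 11.5% in late against early mice. The share with an unadjusted p under 0.05 was 17.3%, 18.5% and 34.2% in that order. The median difference of the 10 genes was 0.00 in late against control mice, -0.13 in early against control mice and 0.08 in late against early mice, beside 0.01, -0.03 and 0.03 over all genes. All 10 had a negative early minus control difference, whereas 45.9% of all genes had a positive one. Early replicates 1 and 2, the arrays with the highest summed macrophage markers, had member medians of -0.21 and -0.11 over the control mean. Early replicate 3 had one of -0.00098. Among those markers Cd68 rose most and Cd163 did not rise. The part of the macrophage markers was not tested. In late against control mice 5 of 10 were positive, beside 51.2% of all genes, and in late against early mice 8 of 10, beside 53%. Late and early mice were set against the same 3 controls, so these values share their errors. Myh2 in late against control mice was the only case among the 30 in which 2 groups did not overlap; over all genes 31% did not in that comparison (16% with late arrays higher, 14.9% lower). In early against control mice 23.6% of all genes did not overlap (9.63% higher, 13.9% lower), and in late against early mice 32.1% (18.3% higher, 13.7% lower).

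**Figure D2:**
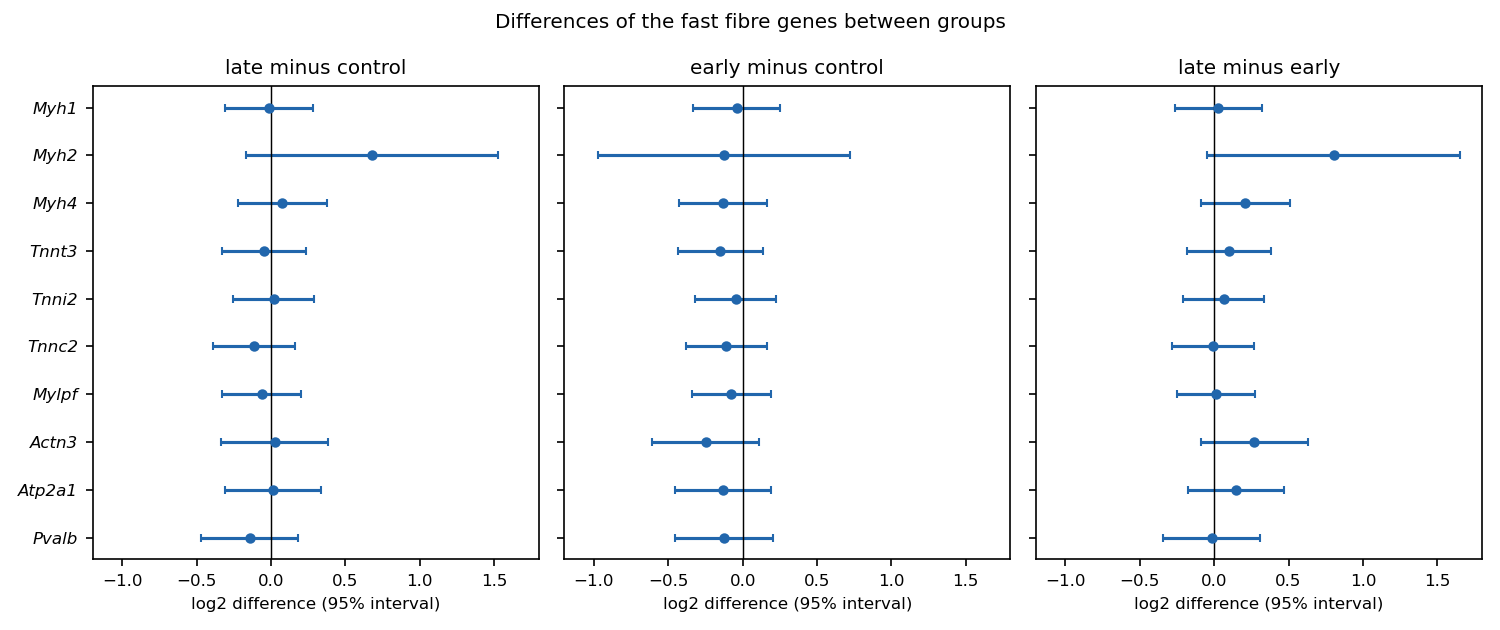
Log2 differences (horizontal axis) of the 10 genes in late minus control, early minus control and late minus early mice; points are limma estimates and bars their 95% intervals (n = 3 per group). Every interval includes 0, and the bars of Myh2 are the widest.

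The intervals show which sizes these arrays leave possible. For the 9 genes other than Myh2, the 95% intervals lay within -0.47 to 0.38 in late against control mice, -0.61 to 0.25 in early against control mice and -0.34 to 0.63 in late against early mice. These bounds hold for the log2 values as read, and the members were read near the top of the scale. Averaged over arrays, their probe sets lay 0.17 to 1.48 below the brightest probe set of the array, and all 10 were among the 141 genes with a mean above 14. In that bright set the median size of an early minus control difference was 0.122, against 0.241 to 0.248 in each range of means below 12, and 0 of the 141 genes passed in that comparison or in late against control mice, while 2 passed in late against early mice. The median residual SD was 0.113 there, against 0.296 for genes with a mean under 8. Whether signal saturation plays a part in this was not tested.

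Some of the genes were also read by dimmer probe sets. A second Myh4 probe set was 13.76, 14.18 and 13.97 in late, 13.62, 13.20 and 14.07 in early and 14.44, 14.12 and 13.86 in control mice. Its early minus control difference was -0.51 ± 0.25, against -0.13 on the brightest probe set, and did not pass over all 16048 probe sets (limma adjusted p = 0.324). A Tnni2 probe set far down the scale was 7.31, 7.58 and 7.68 in late, 5.87, 7.25 and 7.56 in early and 7.23, 7.73 and 7.79 in control mice. Early differed from control mice by -0.69 ± 0.39 there (limma adjusted p = 0.385), against -0.05 on the brightest, and early replicate 1 stood apart from the other 8 arrays. The third Tnni2 probe set gave -0.10 ± 0.13 in early mice against controls. In late mice against controls the second Myh4 and the dim Tnni2 probe set gave -0.17 ± 0.25 and -0.06 ± 0.39. For Myh1 a second bright probe set gave 0.08 ± 0.13 in both late and early mice against controls, opposite in sign to the brightest, and 4 of its 9 arrays carried an identical value. The remaining Myh1 probe set lay under the filter, at 3.32 to 3.67 in late, 2.87 to 3.01 in early and 2.77 to 2.91 in control mice, and was not tested. The myosin heavy chains are close in sequence, so their probe sets may read one another's transcripts. The suffixes of the brightest Myh1 and the third Tnni2 probe set mark probes that can match several transcripts.

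**Figure D3:**
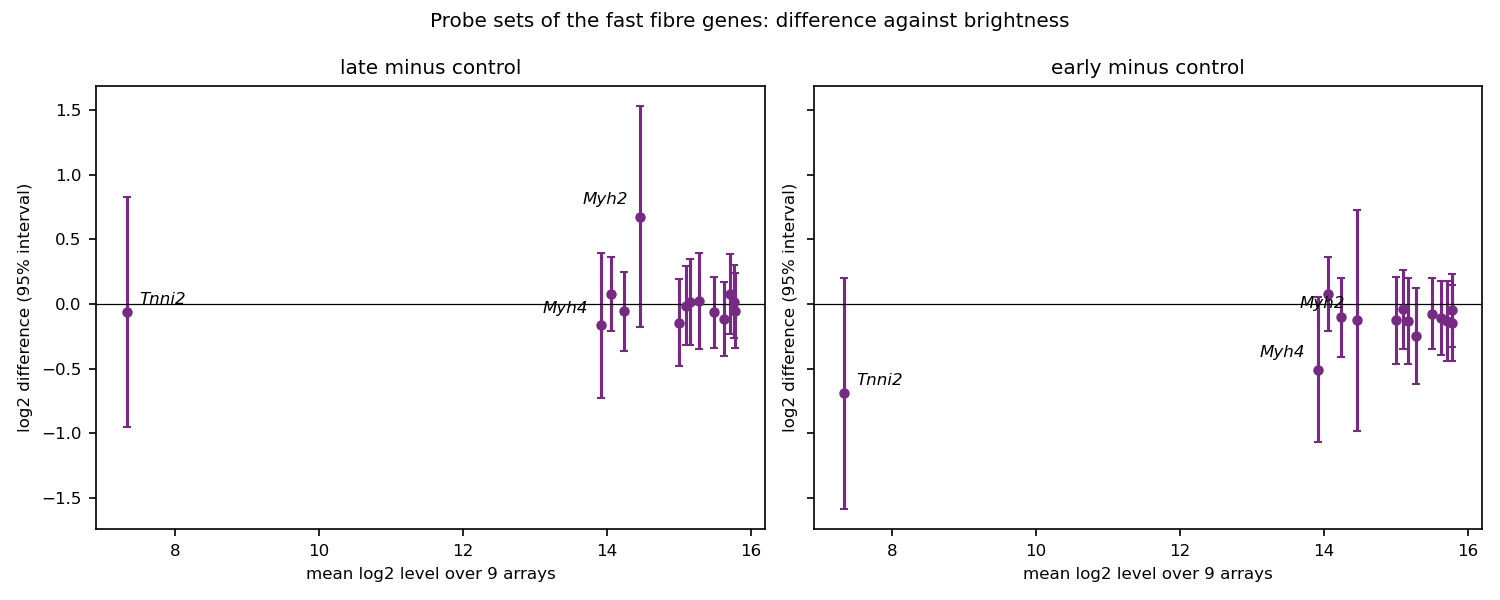
Log2 difference with its 95% interval (vertical axis) against the mean log2 level over 9 arrays (horizontal axis) for the 14 tested probe sets of the fast fibre genes, in late minus control and early minus control mice. The early differences of the dim Tnni2 and the second Myh4 probe set, -0.69 and -0.51, are farther from 0 than those of the brightest probe sets, and their intervals include 0. The late differences of these probe sets are -0.06 and -0.17.

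Many slow fibre counterparts varied widely between animals of a group, while Tpm3, Mybpc1, Actn2 and Mb had SDs of at most 0.51 in every group. Myh7, the slow myosin, stood at 13.37, 12.28 and 5.63 in late mice, 10.96, 2.78 and 2.79 in early mice and 7.10, 2.81 and 9.55 in controls. Tnnc1, the slow calcium sensor, was 12.56, 11.28 and 5.80 in late, 11.80, 6.23 and 4.04 in early and 7.25, 5.80 and 9.29 in control mice. Late replicates 1 and 2 and early replicate 1 were the 3 highest arrays for both genes, and 3 arrays for Myh7 lay near the bottom of the scale. The median of the 16 slow genes tested, over the control mean, was 2.55, 2.09 and -0.37 in late replicates 1, 2 and 3, 2.77, 0.63 and -1.18 in early replicates and -0.08, -0.34 and 0.53 in control replicates. On the same arrays the median of the 10 fast genes was 0.08, -0.07 and -0.05 in late, -0.21, -0.11 and 0.00 in early and 0.10, -0.05 and -0.05 in control mice. Myh2 was highest in late replicates 2 and 1 and early replicate 1, the arrays where the slow genes were highest, and lowest in early replicate 3, where they were lowest.

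None of the 16 slow genes passed in any comparison by limma, with 2 at an unadjusted p under 0.05 in each. Over all genes 17.3%, 18.5% and 34.2% had such a p in late against control, early against control and late against early mice. Atp2a2, the slow calcium pump and counterpart of Atp2a1, was 12.96, 12.75 and 11.45 in late and 13.30, 13.01 and 11.44 in early mice, against 10.84, 10.37 and 11.06 in controls. Every late and early array lay above every control array, by 1.63 ± 0.53 in late and 1.83 ± 0.53 in early mice on average, and neither passed (limma adjusted p = 0.191 and 0.15). Of the 16 slow genes 1 lay higher without overlap in each of these comparisons and 1 lower. Over all genes 16% lay higher and 14.9% lower in late against control mice, and 9.63% and 13.9% in early against control mice. Tpm3, listed as slow tropomyosin, differed by -0.63 ± 0.19 in late mice against controls (limma adjusted p = 0.171). It did not follow Myh7, being lowest, at 9.84, in late replicate 1, where Myh7 was highest, at 13.37. Csrp3, a Z-disc stretch sensor, was 14.02, 12.90 and 8.58 in early mice, against 8.39, 8.17 and 9.03 in controls. Its difference was 3.30 ± 1.25 (limma adjusted p = 0.224), with early replicate 3 at the level of the controls. Actn2, the counterpart of Actn3, differed by 0.02 ± 0.25 in late and 0.22 ± 0.25 in early mice. Among the 5 embryonic and neonatal sarcomere genes 0 passed in any comparison. Myl4, the embryonic light chain, differed by 2.31 ± 0.88 in early mice against controls (limma adjusted p = 0.224), and Myh8, the neonatal myosin, by 1.06 ± 0.56 (limma adjusted p = 0.334). Actc1 went the other way, at -0.66 ± 0.47 (limma adjusted p = 0.467), and 4 of the 5 differences were positive. In late mice against controls 3 of the 5 were positive, while Tnnt2 and Actc1 differed by -1.19 ± 0.74 and -0.60 ± 0.47 (limma adjusted p = 0.434 and 0.547). Myl4 stood at 9.28, 9.51 and 5.68 in early mice, against 5.80, 5.68 and 6.07 in controls, so that early replicate 3 again lay with the controls.

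**Figure D4:**
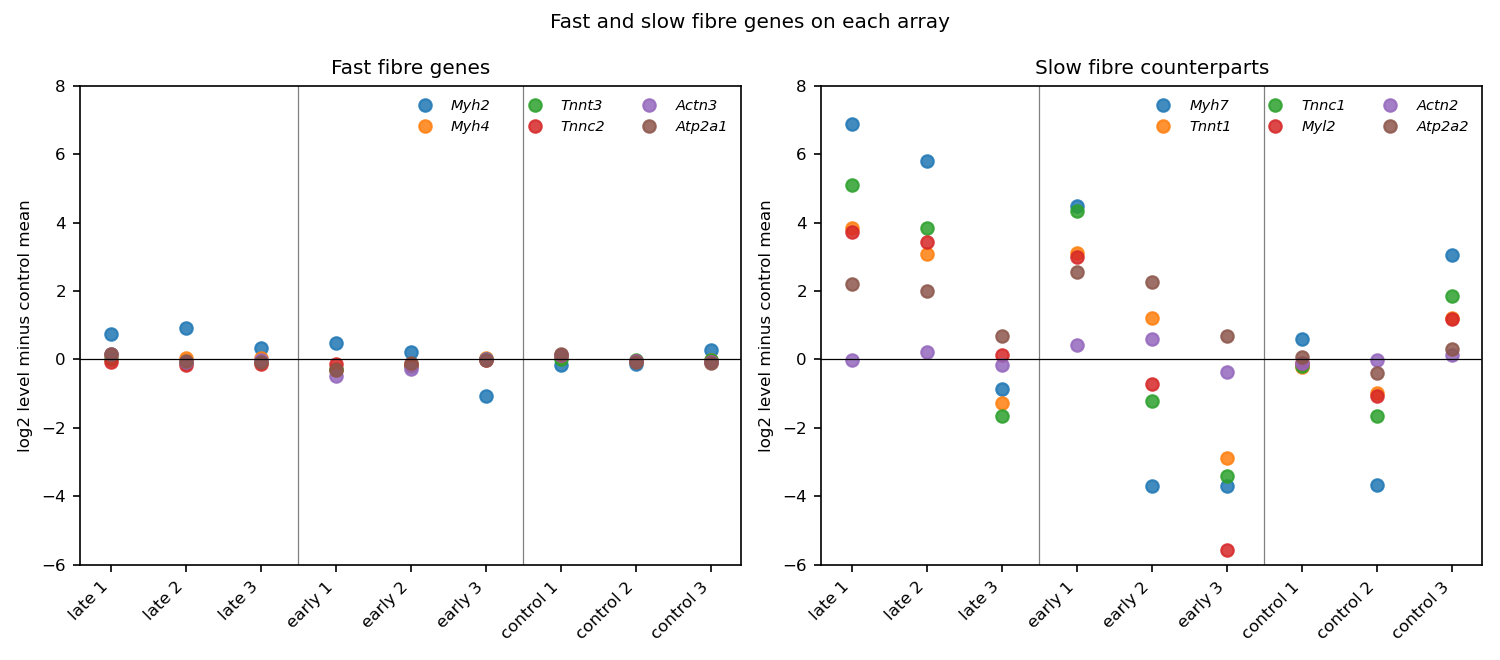
Log2 level minus the control mean (vertical axis, the same on both sides) on each of 9 arrays for 6 fast fibre genes and 6 slow fibre counterparts; each point is 1 gene on 1 array. Slow genes such as Myh7 range over several log2 units within a group, while the fast genes other than Myh2 stay close to 0.

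Of 20 other fast fibre genes, which include further sarcomere genes beside genes of glycolysis, energy buffering and excitation, 19 were tested. In late against early mice 3 of the 19 were higher, 0 lower and 16 did not pass, beside 6.23% of all genes higher and 5.31% lower. Mylk2, the kinase that phosphorylates Mylpf, was 11.72, 11.07 and 11.15 in late, 10.26, 10.15 and 9.96 in early and 10.18, 10.61 and 10.40 in control mice. It was 1.19 ± 0.20 higher in late than in early mice (2.28-fold, limma adjusted p = 0.0159), and late mice stood 0.92 ± 0.20 above controls without passing (limma adjusted p = 0.0971). Cacna1s, the voltage sensor of the T-tubule, was 12.84, 12.89 and 12.88 in late and 11.71, 12.07 and 12.45 in early mice, against 12.50, 12.59 and 12.59 in controls. It was 0.79 ± 0.18 higher in late than in early mice (1.73-fold, limma adjusted p = 0.0328). Ryr1, the calcium release channel that Cacna1s opens, was 14.89, 14.53 and 14.60 in late, 13.73, 13.97 and 14.22 in early and 14.35, 14.27 and 14.22 in control mice. Its late minus early difference was 0.70 ± 0.17 (1.62-fold, limma adjusted p = 0.0352), and with the replicate number as a block it did not pass (adjusted p = 0.0516). A second Ryr1 probe set gave -0.47 ± 0.37 (limma adjusted p = 0.384), in the opposite direction, and the mean of both probe sets gave 0.11 (adjusted p = 0.766). For all 3 genes, picked by this test on the same values, the late arrays lay above the early arrays without overlap, as for 18.3% of all genes. Fitted on the late and early arrays alone, none of the 3 passed (limma adjusted p = 0.0686 for Mylk2, 0.113 for Cacna1s and 0.116 for Ryr1). Without early replicate 2 the count fell to 0, and without early replicate 3 it was 8; leaving out any other single array left 1. Cacna1s and Ryr1 each lost the call in 8 of the 9 fits that left out an array, and Cacna1s also with no filter on dim values (adjusted p = 0.0501).

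Against controls none of the 19 passed, with 2 in late and 4 in early mice at an unadjusted p under 0.05. Over all genes 17.3% and 18.5% had such a p in these comparisons. In early mice 18 of 19 differences were negative, with a median of -0.25. Over all genes 45.9% were positive in this comparison, and the median was -0.03. The 19 genes were read on the same arrays, so their differences are not separate observations. The early arrays did not lie alike, their medians over the control mean being -0.45, -0.25 and -0.02 in replicates 1, 2 and 3. Gpd1, glycerol phosphate dehydrogenase, differed by -1.39 ± 0.42 in early mice (limma adjusted p = 0.162). It stood at 10.50, 11.33 and 12.54 in early mice, against 12.89, 12.75 and 12.89 in controls, with replicate 1 lowest. Ampd1, the AMP deaminase of fast fibres, differed by -0.94 ± 0.36 (limma adjusted p = 0.224), at 11.95, 12.85 and 13.62 in early and 13.83, 13.76 and 13.65 in control mice. Cacna1s differed by -0.49 ± 0.18 (limma adjusted p = 0.216).

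Of 36 listed regulators of fibre type 30 were tested. In early mice against controls 1 fell and 0 rose, beside 0.258% of all genes lower and 0.928% higher. That gene, Tbx15, is a transcription factor that in mouse maintains glycolytic fast fibres. It was 9.88, 9.83 and 9.78 in late, 8.51, 8.98 and 8.90 in early and 9.66, 9.75 and 9.57 in control mice, so every early array lay below the other 6. It fell by 0.86 ± 0.15 on the log2 scale in early mice (0.55-fold, limma adjusted p = 0.036) and was 1.03 ± 0.15 higher in late than in early mice (2.05-fold, limma adjusted p = 0.0108). Late and control mice differed by 0.17 ± 0.15 (limma adjusted p = 0.595). The fall against controls passed when late replicate 1 or early replicate 3 was left out. It was lost when any of the other 7 arrays was left out, with an adjusted p up to 0.177 without control replicate 2, and also with probe sets averaged (adjusted p = 0.131), with the replicate number as a block (adjusted p = 0.0721) and on the early and control arrays alone (adjusted p = 0.0946). The late against early call passed whichever array was left out, with an adjusted p of at most 0.0462, and did not pass on the late and early arrays alone (limma adjusted p = 0.0674). A second Tbx15 probe set gave -0.87 ± 0.35 against controls and 1.27 ± 0.35 for late minus early (limma adjusted p = 0.263 and 0.0507 over all probe sets).

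In late against early mice 2 of 30 regulators were higher and 0 lower, beside 6.23% of all genes higher and 5.31% lower. Ppargc1a, a coactivator that drives mitochondrial genes and the slow programme, was the other regulator called. It stood at 9.78, 9.73 and 9.29 in late and 7.38, 8.24 and 8.56 in early mice, against 8.52, 8.72 and 8.81 in controls. It was 1.54 ± 0.29 higher in late than in early mice (2.91-fold, limma adjusted p = 0.0199), and late mice lay 0.92 ± 0.29 above controls without passing (limma adjusted p = 0.175). The call was lost without late replicate 1, late replicate 2 or early replicate 2 (adjusted p = 0.0551, 0.0729 and 0.0556) and on the late and early arrays alone (adjusted p = 0.0857). The 5 Ppargc1a probe sets tested gave late minus early differences between 0.59 and 1.54, of which 3 passed. With the replicate number as a block 4 regulators passed in late against early mice, and without early replicate 3 there were 13. In late against control mice 0 of 30 regulators passed by limma, beside 0.206% of all genes. At an unadjusted p under 0.05 there were 3 of 30, beside 17.3% of all genes. They were Ppargc1a, Foxo1, a factor that promotes atrophy (1.06 ± 0.42, limma adjusted p = 0.257), and Mef2a, a muscle transcription factor (0.34 ± 0.14, limma adjusted p = 0.27). The regulators' medians were 0.26, -0.17 and 0.37 in late against control, early against control and late against early mice, beside 0.01, -0.03 and 0.03 over all genes.

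**Figure D5:**
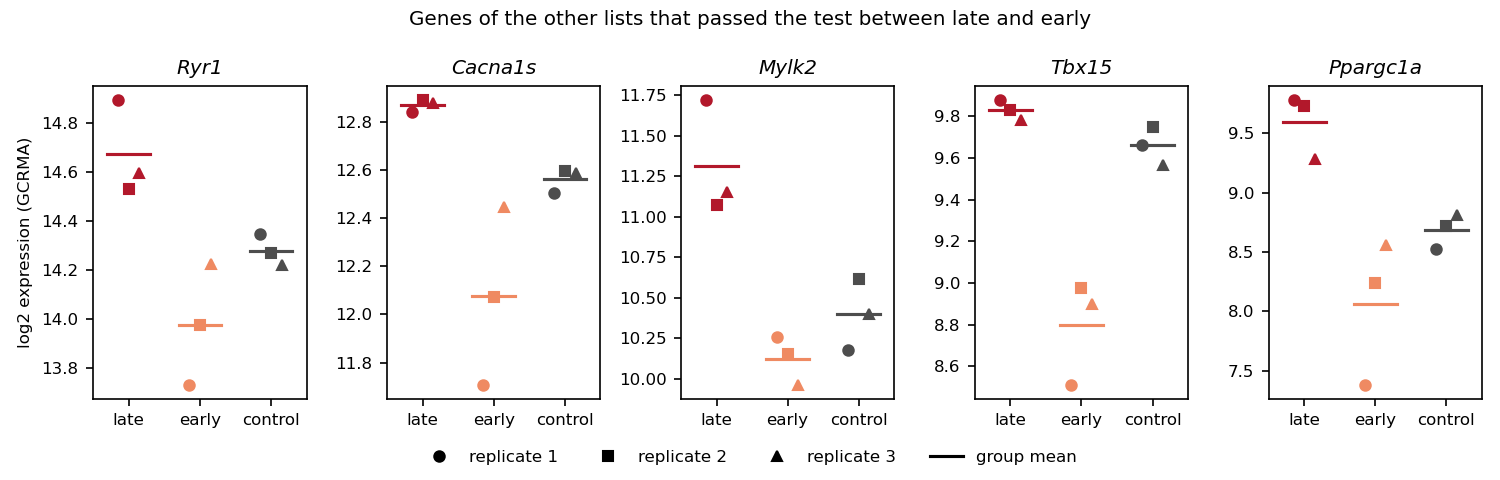
Log2 expression (vertical axis, a separate scale per gene) of Ryr1, Cacna1s, Mylk2, Tbx15 and Ppargc1a in late, early and control mice; points are arrays, shaped by replicate, and lines are group means (n = 3). All 3 late arrays lie above all 3 early arrays for each gene, and for Tbx15 the early arrays also lie below all controls. These genes were picked because they passed between late and early mice on the same values.

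The genes whose pattern over the 9 arrays was closest to each myosin were found by the root mean square difference between deviations from each gene's own mean. For Myh2 these were Nceh1, a cholesterol ester hydrolase (0.16), Fgf1, a growth factor (0.21), and Skil, a repressor of TGF-beta signalling (0.24), on a scale where Myh2 itself had an SD of 0.59. For Myh4 they were Pcnp, Meis1 and Ndufs3 (0.038 to 0.041, against an SD of 0.13), and for Myh1 Ndfip1, Gys1 and Herc3 (0.043 to 0.058, against an SD of 0.094). The matches of Myh1 and Myh4 are between genes that hardly varied.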

How the data were processed

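Per the submitters' processing notes the authors deposited log2 values made with GCRMA, a method that removes background by probe sequence, brings the arrays to a common distribution and gives 1 value a probe set; no version or settings were found in the labels. All 45101 probe sets and 9 columns were read. Genes were named from the platform annotation, and 34958 probe sets named 1 gene. Probe sets above a log2 value of 5 on at least 3 arrays were kept (16048), and the brightest of each gene was tested (9697 genes). One model of 3 group means over 9 arrays was fitted with limma 3.58.1 (lmFit, eBayes) in R 4.3.3, with Benjamini-Hochberg adjustment over all genes and a threshold of 0.05, and was tested on simulated data. A second fit took all 16048 probe sets. With 3 arrays in each of 2 groups the smallest exact permutation p is 0.1, so no such test was run. The labels do not say that replicates share anything. With 1 array per mouse, a p-value reflects only how these samples vary, between animals and technically together. The 3 arrays a group limit the precision.

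All 10 members were named. From every other list except the cell type markers the called genes were named, or else up to 3 with the smallest p, and 3 genes closest to each myosin. Among the cell type markers Mbp, of the Schwann cell list, was also called in late against early mice (0.80 ± 0.22, limma adjusted p = 0.0498). Other names were added after the values were seen. Members and lists were chosen with earlier results of these data known. Deviations from group means of same-numbered late and early arrays correlated at 0.168, 0.201 and 0.16 across genes. For late and control arrays the values were 0.0847, -0.165 and -0.11, and for early and control arrays 0.35, 0.11 and -0.0391. Such values cannot show whether equal numbers pair the arrays, and the labels do not say. The main fit did not pair them, and the replicate number was used as a block only in an alternative. Alternatives were a replicate block, other filters, median centring, other probe set rules, 2-group fits, array weights and leaving out each array.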

Additional observations from a re-analysis of the deposited data

Results flagged for a closer look

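Outside the cell type markers, late and early mice differed for 5 genes of the wider lists, by limma's test of late against early arrays. These were Ryr1 (0.70), Cacna1s (0.79), Mylk2 (1.19), Tbx15 (1.03) and Ppargc1a (1.54), each as late minus early on the log2 scale. Late mice were older and had no controls of their own age, so age and induction cannot be told apart in these differences. None of the 5 passed on the late and early arrays alone (adjusted p = 0.0674 for Tbx15, the lowest, and 0.116 for Ryr1, the highest). Ryr1 also lost its call with the replicate number as a block (adjusted p = 0.0516), and its second probe set gave -0.47.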

How the results depend on the processing

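Under 17 alternatives, 8 of the processing and 9 leaving out 1 array each, 0 of the 10 fast fibre genes passed in any comparison; the lowest limma adjusted p was 0.0676, for Actn3 in late against early mice without early replicate 3. Of 510 alternative differences 38 had the opposite sign, the largest of size 0.35. No paired fit changed a call of a fast fibre gene. The cause was not tested for any change below.

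In late minus control mice, centring arrays on their medians gave -0.0035 for Tnni2 and -0.0060 for Atp2a1, averaging probe sets gave 0.032 for Myh1, -0.045 for Myh4 and -0.034 for Tnni2, dropping shared-probe sets gave 0.077 for Myh1, and array weights gave -0.0013 for Tnni2. In early minus control mice Myh1 was 0.018 with averaged probe sets, 0.078 without shared-probe sets and 0.0196 with array weights, and Myh2 was 0.13 with array weights. In late minus early mice centring gave -0.0027 for Myh1 and -0.0195 for Mylpf, dropping shared-probe sets -0.00054 for Myh1, and array weights -0.030 for Myh1 and 0.0093 for Tnnc2. Leaving out 1 array gave, in late minus control mice, -0.054 to 0.030 for Myh1, -0.042 to 0.054 for Tnni2, -0.046 to 0.081 for Actn3 and -0.062 to 0.090 for Atp2a1. In early minus control mice it gave -0.095 to 0.043 for Myh1 and -0.43 to 0.35 for Myh2. In late minus early mice it gave -0.056 to 0.0825 for Myh1, -0.0092 to 0.025 for Mylpf, -0.035 to 0.034 for Tnnc2 and -0.093 to 0.061 for Pvalb.

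The 20 genes called in late against control mice became 5 with the replicate block, 12 without shared-probe sets, 12 on the 2 groups alone, 1037 with array weights, and 5 (without control replicate 1) to 59 (without early replicate 3). The 115 called in early against control mice became 62 with the replicate block, 56 with no filter, 61 on the 2 groups alone, 3335 with array weights, and 6 (without control replicate 2) to 1756 (without early replicate 3). The 1119 called in late against early mice became 584 with no filter, 38 on the 2 groups alone, 3534 with array weights, and 143 (without late replicate 2) to 2959 (without early replicate 3). The 3 other fast fibre genes called in late against early mice became 0 on the 2 groups alone, 8 with array weights, and 0 to 8 leaving out 1 array. The 1 regulator called in early against control mice became 0 with the replicate block, 0 with averaged probe sets, 0 on the 2 groups alone, 14 with array weights, and 0 to 10 leaving out 1 array. The 2 called in late against early mice became 4 with the replicate block, 4 with averaged probe sets, 0 on the 2 groups alone, 15 with array weights, and 1 to 13 leaving out 1 array. Centring split the late against early calls into 489 higher and 631 lower, beside 604 and 515, and those of late against control mice into 8 and 18, beside 9 and 11.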
